A study of Mus musculus with 56 samples.

Results

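Hearts taken at ZT0, the moment of lights on, were compared between mice fed by day only (daytime-restricted feeding, DRF) and mice fed by night only (nighttime-restricted feeding, NRF), with 4 libraries for each regimen and 8 of the 56 libraries of the series. The members of the comparison were chosen by their labels for regimen and zeitgeber time (ZT, in hours after lights on). All 8 animals were females of the inbred mouse strain C57BL/6J, adult at 9 weeks of age. They ate chow, lived in cycles of 12 h light and 12 h dark, and had followed their regimen for 7 days. NRF mice, the reference, could eat in the dark and so had just passed through their feeding phase at ZT0. DRF mice could eat in the light and had just passed through a night without food. The labels do not say whether food had been given to the DRF mice by the time the hearts were taken. The labels give the tissue as heart, with no chamber or cell type. They number the replicates without naming the animals, and p-values cover the spread between these samples.

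The adult heart burns mostly fatty acids, and it takes up more glucose after a meal, when insulin is high, than in a fast. Fasting raises free fatty acids, which activate the nuclear receptor PPAR alpha, and low insulin lets the FOXO transcription factors act in the nucleus. Heart cells also hold their own circadian clock, a loop in which BMAL1 and CLOCK drive the genes of their own repressors. Light acts on the clock of the brain, while feeding time acts on the clocks of peripheral tissues, so the DRF regimen sets these cues against each other.

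Levels are given in TPM, each gene's length-scaled share of a library's transcripts on a fixed total, computed anew from read numbers worked back out of the deposited values. Differences are DRF minus NRF on the scale of log2(TPM + 1), with the standard error (SE), and a gene was called when limma's Benjamini-Hochberg adjusted p over the 13893 genes tested was under 0.05. Values in the libraries are listed in the order of replicates 1 to 4, and folds are ratios of mean TPM. The ZT0 libraries held 29.3 M to 47.4 M recovered reads, and the mitochondrially encoded genes took 18.5 to 22.8% of the reads under DRF and 16.6 to 22.1% under NRF. The mean shares, 21.2% ± 1.88 (SD, n = 4) and 19.4% ± 2.80 (SD, n = 4), did not differ beyond that spread (exact two-sided permutation test, p = 0.26, where the smallest possible p is 0.029).

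One library stood apart. The summed level of 8 atrial marker genes was 393 TPM in NRF replicate 3 and between 2367 and 5624 TPM in the other 7 libraries. Sln, a regulator of the calcium pump that marks atrial muscle, read 150.3, 310.4, 294 and 159 TPM under DRF and 170.4, 215, 6.73 and 149 TPM under NRF. No atrial marker was called, but the median difference of the list was 0.94, and it was 0.23 without NRF replicate 3.

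At ZT0, 422 genes were higher under DRF (3.04% of the genes tested) and 1159 were lower (8.34%), the shares against which the counts of list members stand. Most differences were small, with a median of 0.40 among the genes called higher and -0.33 among those called lower. Only 24 of the higher and 16 of the lower genes differed by 1 or more on the log2 scale. The libraries of the regimens did not overlap for 355 of the genes called higher and 902 of those called lower. Over all genes tested, such a separation was seen for 5.15% in the higher and 10.3% in the lower direction. The balance between directions depended on the scaling. With TPM, 73.3% of the calls were lower under DRF and the median difference over all genes was -0.053. With median-of-ratios scaling, 969 genes were higher and 984 lower (50.4% lower), and the median was 0.0017. With the mitochondrially encoded genes left out of the TPM sum, 611 were higher and 757 lower. Of the TPM calls, 1341 were called the same way with median-of-ratios scaling and 0 the opposite way. The total of 1581 calls fell to 950 without DRF replicate 1, to 901 without NRF replicate 1 and to 896 (284 higher and 612 lower) without NRF replicate 3.

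**Figure D1:**
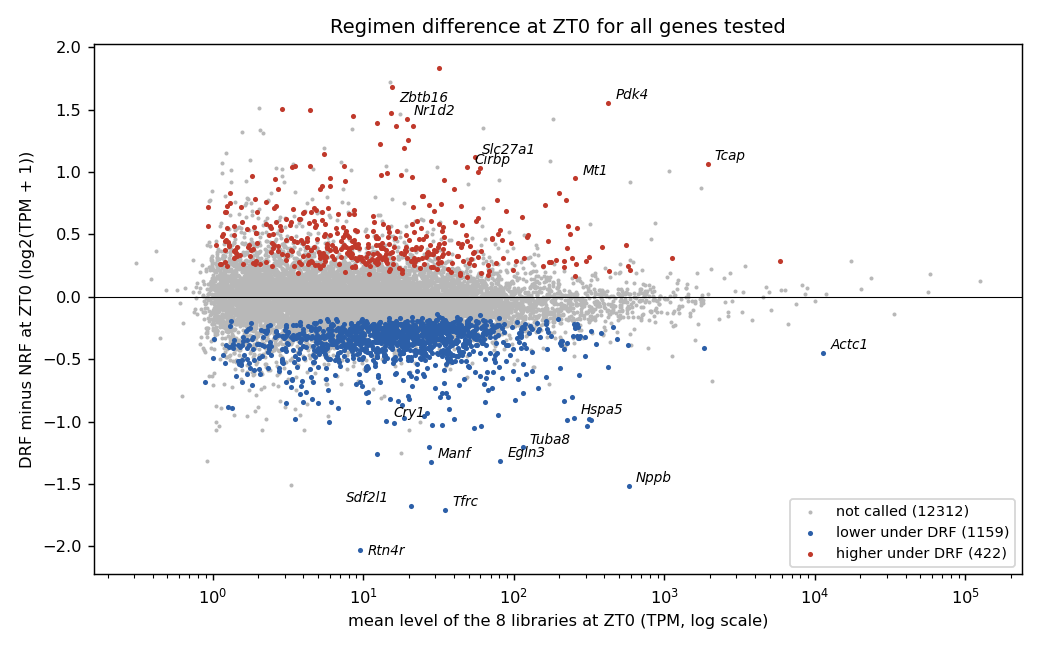
Each point is one of the 13893 genes tested, with its mean TPM over the 8 ZT0 libraries on a log axis and its DRF minus NRF difference on the log2(TPM + 1) scale. The 422 genes called higher are red, and the 1159 called lower (blue) reach -2.03 for Rtn4r.

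Genes of the fasting response were among the largest differences on the higher side. Of 19 tested members of the fasting and PPAR alpha list, 8 were higher under DRF and 0 lower, with a median difference of 0.55 against -0.053 over all genes. Pdk4, the kinase that shuts off pyruvate dehydrogenase and so spares glucose, read 911, 393, 424 and 812 TPM under DRF and 269, 126, 178 and 273 TPM under NRF. The regimens did not overlap, but DRF replicates 1 and 4 lay far above replicates 2 and 3. Its difference was 1.55 ± 0.46 (adjusted p = 0.02), and it lost the call without DRF replicate 1 (0.088), DRF replicate 4 (0.073), NRF replicate 2 (0.071) or NRF replicate 3 (0.062), with the adjusted p in parentheses.

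Further called members of the fasting list included genes that handle fatty acids. The acyl-CoA thioesterase genes Acot1 and Acot2, which free fatty acids from coenzyme A, rose 2.54-fold and 1.73-fold, by 1.26 ± 0.27 (adjusted p = 0.0014) and 0.78 ± 0.19 (adjusted p = 0.0057). They are close paralogs in one cluster, so reads may have been split between them. Slc25a34, a carrier of the inner mitochondrial membrane, read 279, 226, 252 and 258 TPM under DRF and 159, 116, 143 and 151 TPM under NRF. The groups were well apart, with a difference of 0.83 ± 0.13 (adjusted p = 3.32e-05). Pnpla2, which encodes adipose triglyceride lipase, rose by 0.55 ± 0.12 (adjusted p = 0.0013). Lipe, which encodes hormone-sensitive lipase, rose by 0.55 ± 0.16 (adjusted p = 0.019). Cd36, a fatty acid transporter of the cell surface, was among the most abundant genes called higher. It read 1253, 1184, 1175 and 1327 TPM under DRF and 1104, 938, 970.5 and 970.1 TPM under NRF, a step of 0.31 ± 0.095 (adjusted p = 0.025) that lost the call without DRF replicate 1 (0.064), DRF replicate 4 (0.09), NRF replicate 2 (0.065) or NRF replicate 3 (0.071). Slc27a1, another fatty acid transporter, is not in the list and was higher too. It read 81.2, 82.9, 65.7 and 74.5 TPM under DRF and 31.2, 30.8, 39.0 and 37.5 TPM under NRF, a 2.20-fold rise by 1.12 ± 0.14 (adjusted p = 7.16e-07). Without DRF replicate 1, 5 members of the fasting list kept the threshold. Ucp3, an uncoupling protein that PPAR alpha induces, did not pass, at 0.90 ± 0.43 (adjusted p = 0.18), although its libraries did not overlap. Single libraries ended the call for Lipe without DRF replicate 1 (0.068) or NRF replicate 4 (0.059), with the adjusted p in parentheses.

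Some genes of mitochondrial fatty acid oxidation were higher under DRF. Of 22 tested members, 7 were called higher and 0 lower, 6 had differences below 0, and the median was 0.16. Cpt1a, which carries long-chain fatty acids over the outer step into mitochondria, read 59.5, 44.1, 47.1 and 46.8 TPM under DRF and 33.7, 27.1, 34.3 and 33.5 TPM under NRF. All DRF values were above all NRF values, by 0.60 ± 0.17 (adjusted p = 0.018). Mlycd breaks down malonyl-CoA, the inhibitor of that step, and rose by 0.43 ± 0.12 (adjusted p = 0.0098). Enzymes of the beta-oxidation cycle rose less, with 0.22 ± 0.062 for the medium-chain dehydrogenase gene Acadm, 0.27 ± 0.067 for Hadh and 0.29 ± 0.078 for Decr1. The count was 12 with median-of-ratios scaling. It was 1 without NRF replicate 2, 4 without DRF replicate 4 and 11 without NRF replicate 3. In peroxisomes, Ehhadh and Acox3 rose, by 0.60 ± 0.18 and 0.26 ± 0.084, as the called members among 12. With median-of-ratios scaling 8 rose, and 0 passed with limma without DRF replicate 1 or NRF replicate 1. A lost call was seen for Cpt1a without DRF replicate 1 (0.088) or NRF replicate 2 (0.061), for Mlycd without NRF replicate 2 (0.052), for Acadm without NRF replicate 2 (0.068), for Decr1 without DRF replicate 4 (0.052) or NRF replicate 2 (0.071), for Ehhadh without DRF replicate 1 (0.17), DRF replicate 4 (0.066), NRF replicate 1 (0.058) or NRF replicate 3 (0.064), for Acox3 without DRF replicate 1 (0.096), DRF replicate 2 (0.062), DRF replicate 3 (0.09), NRF replicate 1 (0.068), NRF replicate 2 (0.10) or NRF replicate 4 (0.064), with the adjusted p in parentheses.

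Some genes of ketone use were lower under DRF. Of 6 tested members of the ketone body list, 3 fell and 1 rose, where 8.34% of all genes fell and 3.04% rose. Differences were above 0 for 3 members and below 0 for 3, with a median of -0.14. With median-of-ratios scaling 2 rose and 3 fell. Oxct1, the enzyme that lets the heart burn ketone bodies, read 499, 491, 509 and 485 TPM under DRF and 726, 594, 680.0 and 601 TPM under NRF. The DRF values lay close together and all below NRF, with a difference of -0.38 ± 0.085 (adjusted p = 0.0019). Bdh1, which converts beta-hydroxybutyrate, read 19.96, 13.4, 28.4 and 23.5 TPM under DRF and 42.8, 53.8, 57.5 and 26.0 TPM under NRF. NRF replicate 4 overlapped the DRF libraries, and the difference of -1.03 ± 0.27 (adjusted p = 0.0078) lost the call without DRF replicate 2 (0.051). Slc16a1, a transporter of lactate and ketone bodies, was lower, with a difference of -0.41 ± 0.11 (adjusted p = 0.013). The call was also lost for Slc16a1 without NRF replicate 3 (0.091), with the adjusted p in parentheses.

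**Figure D2:**
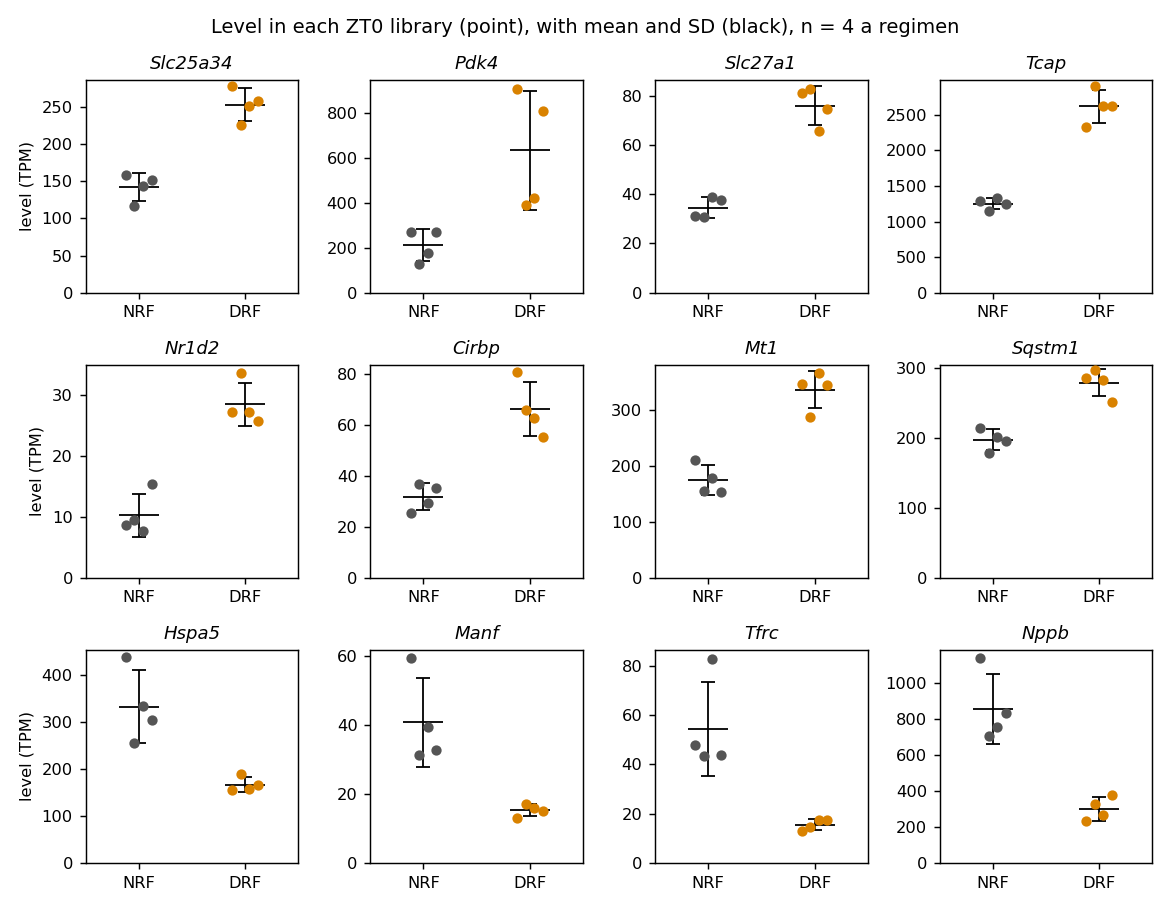
Each panel shows the level of one gene in TPM, from 0, in the 4 NRF (grey) and 4 DRF (orange) libraries at ZT0, with the mean and SD in black. The regimens do not overlap in any of the 12 panels, with DRF higher for Slc25a34, Pdk4, Slc27a1, Tcap, Nr1d2, Cirbp, Mt1 and Sqstm1 and lower for Hspa5, Manf, Tfrc and Nppb.

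Genes of the insulin and FOXO response were higher or did not pass. Of 22 tested members, 4 rose and 0 fell, with a median of 0.21. Eif4ebp1 encodes a repressor of cap-dependent translation that insulin signalling inactivates. It read 88.8, 97.8, 89.5 and 91.2 TPM under DRF and 68.9, 58.3, 62.9 and 68.4 TPM under NRF, a tight separation with a difference of 0.50 ± 0.078 (adjusted p = 2.44e-05). Deptor, an inhibitor of the mTOR kinase, rose by 0.50 ± 0.11 (adjusted p = 0.0015). Pik3r1, the regulatory subunit of phosphoinositide 3-kinase, and the cell cycle inhibitor gene Cdkn1b rose by 0.49 ± 0.13 and 0.31 ± 0.077. All these called members kept the call without each library in turn. With median-of-ratios scaling 8 members rose. Klf15, a transcription factor of fasting metabolism, had a difference of 0.60 ± 0.22 (adjusted p = 0.071) and did not pass.

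Of 31 tested members of the glycolysis list, 1 rose and 6 fell, where 3.04% of all genes rose and 8.34% fell, and the median was -0.038. With median-of-ratios scaling 3 rose and 4 fell, and the median was 0.025. Hk1 and Hk2, the hexokinases that trap glucose in the cell, were both lower. Hk2 read 75.2, 76.1, 71.2 and 69.2 TPM under DRF and 114, 90.3, 109.6 and 106 TPM under NRF. The groups did not overlap, with differences of -0.51 ± 0.086 (adjusted p = 6.51e-05) for Hk1 and -0.52 ± 0.10 (adjusted p = 4.01e-04) for Hk2. The phosphofructokinase gene Pfkl fell by 0.35 ± 0.090 (adjusted p = 0.0074). Pfkfb1, which sets the level of the activator of phosphofructokinase, was the called member that rose, by 0.68 ± 0.17 (adjusted p = 0.0065). The number that fell was 3 without DRF replicate 4 or NRF replicate 1. Without NRF replicate 3, 2 rose and 2 fell. The call was also lost for Pfkl without NRF replicate 3 (0.096), with the adjusted p in parentheses.

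Of 22 tested members of the fatty acid synthesis and desaturation list, 1 rose and 2 fell, close to the 3.04% and 8.34% of all genes. With median-of-ratios scaling 3 rose, and 1 fell without DRF replicate 1, DRF replicate 4, NRF replicate 2 or NRF replicate 3. Scd4, a fatty acid desaturase, read 24.6, 20.5, 17.5 and 29.4 TPM under DRF and 6.00, 7.92, 7.96 and 8.25 TPM under NRF. The DRF libraries were all higher, 3.05-fold on average (1.48 ± 0.32, adjusted p = 0.0018). Scd2, a relative of Scd4 that may share reads with it, went the other way, with a difference of -0.60 ± 0.17 (adjusted p = 0.015). Lpin1, a phosphatidate phosphatase, fell by 0.50 ± 0.11 (adjusted p = 0.0012). In cholesterol synthesis and uptake, 9 of 20 tested members fell and 1 rose, with a median of -0.26. Sqle, an enzyme of the middle steps, read 1.13, 0.903, 1.16 and 1.12 TPM under DRF and 2.18, 2.02, 1.91 and 1.97 TPM under NRF. It was low in every library and lower in every DRF library, with a difference of -0.54 ± 0.11 (adjusted p = 9.14e-04). Hmgcs1, the cytosolic synthase at the head of the pathway, was lower, with a difference of -0.39 ± 0.075 (adjusted p = 4.25e-04). Fdft1, squalene synthase, was the member that rose, by 0.31 ± 0.081 (adjusted p = 0.0082). Single libraries ended the call for Scd2 without DRF replicate 1 (0.057), DRF replicate 4 (0.056), NRF replicate 2 (0.064) or NRF replicate 3 (0.069), with the adjusted p in parentheses.

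The list with the most called members was that of the endoplasmic reticulum (ER) chaperones, which fold secreted and membrane proteins. Of 25 members, 16 were lower under DRF and 0 higher, with a median of -0.45. The differences of 24 of the 25 were below 0. The same number was lower with median-of-ratios scaling, and 14 to 18 were lower when each library was left out in turn. Hspa5, the major ER chaperone BiP, read 155, 189, 157 and 166 TPM under DRF and 439, 256, 334 and 304 TPM under NRF. NRF replicate 1 was the highest, but every NRF library was above every DRF library, 1.997-fold on average, and the difference was -0.97 ± 0.15 (adjusted p = 3.20e-05). Sdf2l1, a partner of BiP, had the largest difference of the list. It read 6.89, 11.2, 11.5 and 7.54 TPM under DRF and 49.2, 25.1, 31.4 and 23.9 TPM under NRF. That is 3.49-fold lower under DRF, with a difference of -1.67 ± 0.25 (adjusted p = 2.07e-05). Manf, a secreted stress-response protein of the ER, read 13.0, 17.2, 15.9 and 14.9 TPM under DRF and 59.5, 31.5, 39.6 and 32.9 TPM under NRF, again with NRF replicate 1 far above the rest and a difference of -1.32 ± 0.22 (adjusted p = 4.72e-05).

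Calr and Canx, lectin chaperones of glycoproteins, differed by -0.80 ± 0.11 (adjusted p = 3.99e-06) and -0.32 ± 0.065 (adjusted p = 6.97e-04). The disulfide isomerase genes Pdia3, Pdia4 and Pdia6 differed by -0.73 ± 0.11, -0.90 ± 0.15 and -0.73 ± 0.12. Xbp1, a transcription factor of the unfolded protein response, read 42.0, 53.0, 48.0 and 48.1 TPM under DRF and 96.5, 66.8, 82.1 and 68.7 TPM under NRF. Its DRF libraries were all lower, with a difference of -0.70 ± 0.12 (adjusted p = 1.39e-04). Atf6, which encodes another such factor, was lower, with a difference of -0.36 ± 0.089 (adjusted p = 0.0056). Selenos and Edem1, both of ER-associated degradation, did not pass, at -0.28 ± 0.097 (adjusted p = 0.053) and -0.29 ± 0.10 (adjusted p = 0.056). The call was also lost for Atf6 without NRF replicate 1 (0.082), with the adjusted p in parentheses.

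Promoters of some of these chaperone genes shared a sequence. The ER stress element is the sequence CCAAT, 9 bases of any kind and then CCACG, and it is known as a site of ATF6. It was searched on both strands from 250 bases before to 50 after the start site in RefSeq promoters (GRCm38.p6), and this motif was added after the values were seen. It stood in 15 of 12660 promoters of tested genes (0.118%). Of these, 9 belong to genes called lower, among 1179 such promoters (0.763%), and 0 to genes called higher, among 413. In the chaperone list, 8 of 22 promoters held it (36.4%), and these are among the 9 of genes called lower. The list was made of genes of the unfolded protein response, in which ATF6 acts, so this share is not independent of the choice of genes. The sites of 8 called genes are printed 5′ to 3′ on the strand of the gene to show how alike they are, with the fixed bases in capitals, which read CGTGG and ATTGG where the element lies on the other strand.
Hspa5, chr2:34772020-34772048, plus strand: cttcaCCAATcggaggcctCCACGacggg
Calr, chr8:84847070-84847098, minus strand: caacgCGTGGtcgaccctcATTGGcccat
Hsp90b1 site 1, chr10:86705633-86705661, minus strand: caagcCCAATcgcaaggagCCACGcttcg
Hsp90b1 site 2, chr10:86705528-86705556, minus strand: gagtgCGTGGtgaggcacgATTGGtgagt
Canx, chr11:50325795-50325823, minus strand: attgaCCAATcaccacgctCCACGaagaa
Pdia6, chr12:17266486-17266514, plus strand: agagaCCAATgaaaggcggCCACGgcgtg
Dnajc3, chr14:118937822-118937850, plus strand: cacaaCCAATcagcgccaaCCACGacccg
Creld2, chr15:88819515-88819543, plus strand: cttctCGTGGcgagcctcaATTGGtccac
Syvn1, chr19:6046527-6046555, plus strand: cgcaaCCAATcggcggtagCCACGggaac
The Hspa5 site begins 65 bases before the start site, and Hsp90b1 holds a pair of sites. The Creld2 site lies between Creld2 and Alg12, which is transcribed the other way and was lower too, with a difference of -0.49 ± 0.094 (adjusted p = 3.61e-04). Promoters of Spats2l, Hnrnpa3, Acacb, Pan2, Adcy3 and Zfp57 also held the element, and those genes were not called. A match is a description of the sequence. Single libraries ended the call for Syvn1 without NRF replicate 1 (0.051), with the adjusted p in parentheses.

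Some heat shock genes were lower, while Cirbp and Rbm3, which are known to rise in the cold, were higher. Of 22 tested members of that list, 8 fell and 2 rose, with a median of -0.23. Cirbp and Rbm3, the members that rose, encode RNA-binding proteins. The number that fell was 6 without NRF replicate 1 or NRF replicate 3. Cirbp read 80.9, 65.8, 63.0 and 55.5 TPM under DRF and 25.3, 37.0, 29.6 and 35.3 TPM under NRF. The lowest DRF library was well above the highest NRF library, with a difference of 1.04 ± 0.18 (adjusted p = 1.23e-04). Rbm3 read 37.5, 32.7, 37.1 and 30.6 TPM under DRF and 18.9, 23.4, 17.4 and 21.8 TPM under NRF, a difference of 0.74 ± 0.17 (adjusted p = 0.0022). Hsph1, which encodes a large heat shock protein, read 8.66, 15.2, 14.3 and 12.4 TPM under DRF and 26.3, 21.2, 27.9 and 19.2 TPM under NRF. It was lower in every DRF library, 1.87-fold on average (-0.87 ± 0.19, adjusted p = 0.0015). The cochaperone genes Stip1 and Ahsa1, which serve HSP90, fell by 0.62 ± 0.11 and 0.44 ± 0.087. No body temperature was analysed here.

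Genes that build the protein synthesis machinery fell in part. In ribosome biogenesis and growth, 8 of 29 members fell and 2 rose, the abundant nucleolar genes Ncl and Npm1. Ddx21, a nucleolar helicase, and Fbl, which methylates ribosomal RNA, differed by -0.31 ± 0.061 (adjusted p = 5.22e-04) and -0.36 ± 0.083 (adjusted p = 0.0029). The lower count was 5 without NRF replicate 1 and 3 without NRF replicate 3, and the higher count was 0 without DRF replicate 1 or NRF replicate 3. Of 20 tested aminoacyl-tRNA synthetase genes, which load amino acids on tRNA, 4 fell and 0 rose, with -0.35 ± 0.069 (adjusted p = 6.43e-04) for Aars. That count was 2 without DRF replicate 4, NRF replicate 1 or NRF replicate 3. None of 81 ribosomal protein genes passed in either direction, and their median was -0.034 with TPM and 0.029 with median-of-ratios scaling. None of 80 nuclear-encoded respiratory chain genes passed either, with medians of -0.019 and 0.044. Nor did any of the 13 mitochondrially encoded protein genes. The call was also lost for Ncl without DRF replicate 1 (0.10) or NRF replicate 3 (0.14), for Npm1 without DRF replicate 1 (0.064), DRF replicate 3 (0.071) or NRF replicate 3 (0.18), with the adjusted p in parentheses.

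**Figure D3:**
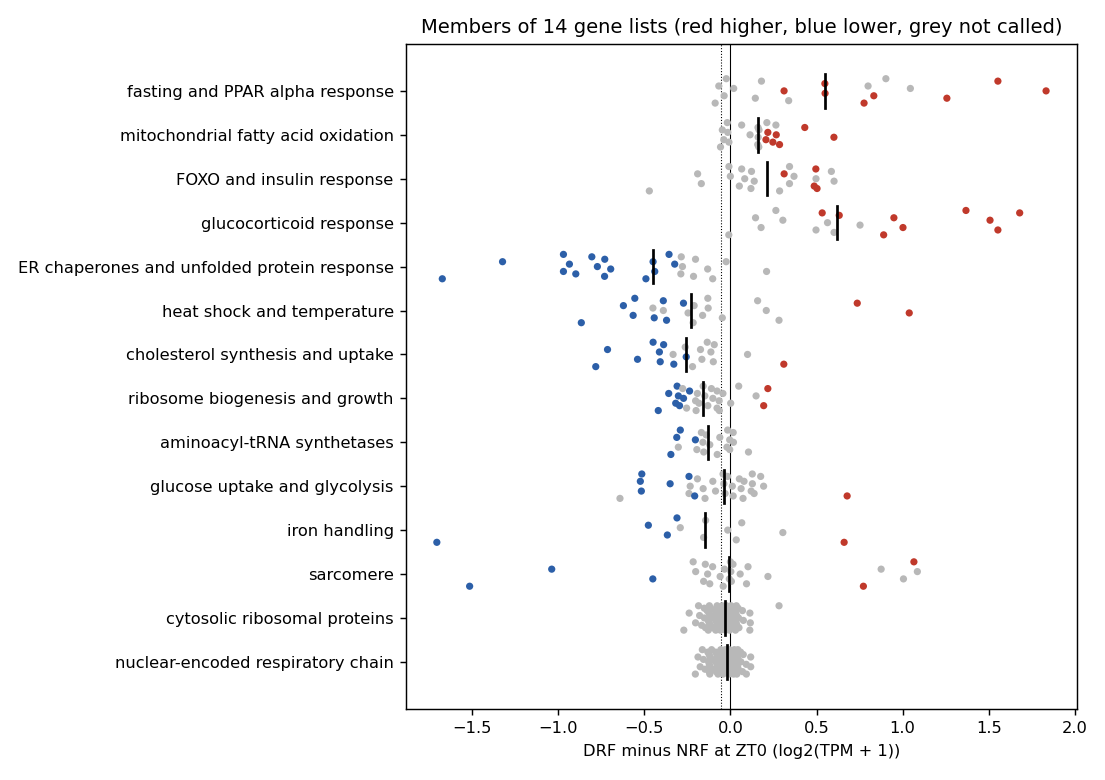
Each point is a tested member of 1 of 14 gene lists, placed by its DRF minus NRF difference at ZT0 on the log2(TPM + 1) scale, with the list median as a black bar and the median of all genes (-0.053) as a dotted line. Red members were called higher, blue lower and grey not called. The fasting and glucocorticoid lists lie to the right, with medians of 0.55 and 0.62, and the ER chaperones to the left, at -0.45.

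Genes that respond to glucocorticoids, the adrenal hormones of stress and of the active phase, changed in the higher direction where they passed. Of 18 tested members, 9 rose and 0 fell, with a median of 0.62. The count was 6 without DRF replicate 1 and 6 without NRF replicate 3. Zbtb16, a transcription factor strongly induced by these hormones, read 27.4, 32.3, 15.4 and 21.96 TPM under DRF and 9.62, 4.35, 6.30 and 7.17 TPM under NRF. DRF was 3.54-fold higher, by 1.68 ± 0.38 (adjusted p = 0.0022). The metallothionein genes Mt1 and Mt2, which bind zinc and copper, were both higher. Mt1 read 346, 288, 365 and 344 TPM under DRF and 210.4, 155, 178 and 153 TPM under NRF. Mt2 was far less abundant, at 3.50, 2.94, 5.60 and 7.20 TPM under DRF and 0.683, 1.63, 1.01 and 0.658 TPM under NRF. Neither gene overlapped between regimens, with differences of 0.95 ± 0.15 (adjusted p = 3.02e-05) and 1.51 ± 0.31 (adjusted p = 8.07e-04). Sult1a1, a sulfotransferase, rose by 1.002 ± 0.16 (adjusted p = 4.56e-05). Fkbp5 and Tsc22d3, standard glucocorticoid targets, rose by 0.89 ± 0.26 (adjusted p = 0.019) and 0.63 ± 0.20 (adjusted p = 0.035). Pdk4 and the clock gene Per1 are also in this list, so its count is not independent of theirs. A lost call was seen for Fkbp5 without DRF replicate 1 (0.08) or DRF replicate 2 (0.051), for Tsc22d3 without DRF replicate 1 (0.052), DRF replicate 2 (0.091), DRF replicate 3 (0.08), NRF replicate 1 (0.074), NRF replicate 2 (0.085) or NRF replicate 3 (0.068), with the adjusted p in parentheses.

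Iron genes changed around a single large difference. Tfrc, the transferrin receptor that brings iron into the cell, read 12.8, 14.5, 17.3 and 17.4 TPM under DRF and 47.9, 43.3, 83.0 and 43.7 TPM under NRF. The highest DRF library was below the lowest NRF library by a wide gap, and the mean was 3.51-fold lower under DRF (-1.70 ± 0.26, adjusted p = 2.07e-05). Slc40a1, the iron exporter ferroportin, went the other way and read 11.6, 11.1, 9.71 and 10.7 TPM under DRF and 6.88, 5.74, 6.79 and 6.42 TPM under NRF, up by 0.66 ± 0.11 (adjusted p = 8.99e-05). The importer genes Slc39a14 and Slc11a2 fell by 0.48 ± 0.096 and 0.37 ± 0.087. In all, 4 of 12 tested members of the iron list fell and 1 rose. Egln3, an oxygen-sensing prolyl hydroxylase that itself contains iron, is outside the list and read 40.6, 47.7, 47.2 and 46.8 TPM under DRF and 129.8, 105, 149.6 and 84.6 TPM under NRF. It was 2.57-fold lower, with a difference of -1.31 ± 0.18 (adjusted p = 2.24e-06).

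Of the 19 core clock genes, 6 were higher under DRF and 4 lower. The lower count was 2 with median-of-ratios scaling and 2 without any one of DRF replicates 1, 2 and 4 and NRF replicates 1 and 2. Nr1d2, a nuclear receptor that represses Arntl, read 27.2, 33.6, 27.3 and 25.8 TPM under DRF and 8.60, 9.44, 7.65 and 15.4 TPM under NRF. NRF replicate 4 was the highest NRF library but still below DRF, and the difference was 1.43 ± 0.19 (adjusted p = 1.69e-06). Its close relative Nr1d1 read 18.2, 23.1, 21.3 and 25.3 TPM under DRF and 12.6, 14.3, 15.7 and 23.3 TPM under NRF and did not pass, at 0.42 ± 0.27 (adjusted p = 0.36). The overlap came from NRF replicate 4. Per1, a repressor that glucocorticoids also induce, read 17.4, 33.8, 22.8 and 21.5 TPM under DRF and 8.49, 4.98, 6.38 and 17.5 TPM under NRF. NRF replicate 4 again reached the DRF range, and Per1 was called at 1.37 ± 0.36 (adjusted p = 0.0095). Per3 and Cry2, further repressors, rose by 0.71 ± 0.18 (adjusted p = 0.007) and 0.43 ± 0.11 (adjusted p = 0.0057). Per2 did not pass, at 0.36 ± 0.24 (adjusted p = 0.37).

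Cry1, a repressor that peaks later than the other members, fell. It read 9.78, 8.61, 9.60 and 8.09 TPM under DRF and 24.4, 17.1, 21.4 and 14.1 TPM under NRF, with no overlap and a difference of -0.99 ± 0.16 (adjusted p = 3.20e-05). Among the output factors, Dbp and Tef, which activate genes with a D-box, were higher by 1.45 ± 0.42 (adjusted p = 0.019) and 0.61 ± 0.16 (adjusted p = 0.0079). Nfil3, which represses through the same box, was lower at 17.3, 15.7, 17.8 and 13.8 TPM under DRF and 43.3, 33.7, 38.8 and 38.6 TPM under NRF, with a difference of -1.21 ± 0.25 (adjusted p = 8.07e-04). Arntl, which encodes BMAL1, read 6.51, 7.44, 7.95 and 6.80 TPM under DRF and 14.8, 11.9, 11.7 and 11.4 TPM under NRF. Its libraries did not overlap and the difference was -0.71 ± 0.23 (adjusted p = 0.036), but the call was lost without DRF replicate 1 (0.096), DRF replicate 2 (0.059), DRF replicate 4 (0.084), NRF replicate 1 (0.13), NRF replicate 2 (0.052) or NRF replicate 3 (0.068). With median-of-ratios scaling its adjusted p was 0.056. Clock, its partner, passed narrowly at -0.27 ± 0.091 (adjusted p = 0.0498), with an adjusted p of 0.16 under the other scaling and a lost call without DRF replicate 1 (0.075), DRF replicate 2 (0.14), DRF replicate 4 (0.10), NRF replicate 1 (0.19), NRF replicate 2 (0.064) or NRF replicate 4 (0.087). Dbp lost its call without DRF replicate 2 (0.073) or NRF replicate 1 (0.053). Rora, Npas2, Hlf, Ciart, Bhlhe40 and Bhlhe41 did not pass, with differences from -0.12 for Npas2 to 0.24 for Hlf.

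**Figure D4:**
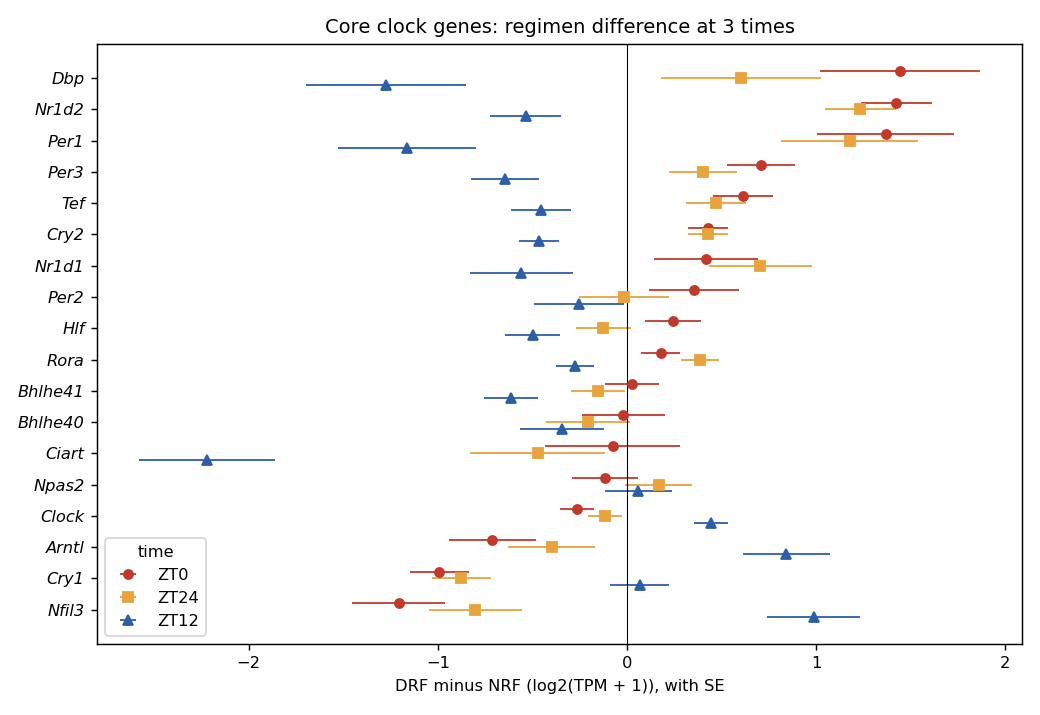
The DRF minus NRF difference of the core clock genes named in the text at ZT0 (circles), ZT24 (squares) and ZT12 (triangles) on the log2(TPM + 1) scale, with SE bars, sorted by the ZT0 value. At ZT0, Dbp is the highest at 1.45 and Nfil3 the lowest at -1.21. Both have the other sign at ZT12, where Dbp was not called.

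Several clock genes carry their known elements in the promoter window. The E-box CACGTG, bound by BMAL1 and CLOCK, stood in 6 of 21 promoters of the clock list (28.6%) and in 9.68% of all promoters. Among promoters of genes called higher the share was 7.99%, and among those called lower 9.33%. The examples show that the same E-box stood before genes that rose (Per1) and fell (Cry1), while the ROR element (NTAGGTCA) stood in Arntl and Nfil3, which both fell, and the D-box (TTATGTAA) in Per3, which rose. Both strands were searched, and motifs are in capitals, 5′ to 3′ on the strand of the gene.
Per1, chr11:69098771-69098800, plus strand: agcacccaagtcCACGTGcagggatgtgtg
Cry1, chr10:85185097-85185126, minus strand: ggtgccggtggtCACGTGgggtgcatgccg
Per3 site 1, chr4:151044852-151044881, minus strand: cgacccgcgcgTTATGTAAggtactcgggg
Per3 site 2, chr4:151044805-151044834, minus strand: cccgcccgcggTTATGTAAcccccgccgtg
Arntl, chr7:113207529-113207558, plus strand: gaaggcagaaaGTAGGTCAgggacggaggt
Nfil3, chr13:52981033-52981062, minus strand: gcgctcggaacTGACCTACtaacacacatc
The Nfil3 element lies on the other strand and reads TGACCTAC. Of the other motifs searched, the FOXO element (TGTTTAC) stood in 3.39% of promoters of genes called higher, 1.61% of those called lower and 2.65% of all. The glucocorticoid element (ACANNNTGT) stood in 6.54%, 3.73% and 4.22%. The cyclic AMP element (TGACGTCA) stood in 0.969%, 3.14% and 2.84%. The D-box stood in 0.484% of promoters of genes called higher, 1.1% of those called lower and 0.545% of all, and the ROR element in 2.18%, 1.78% and 1.87%. The heat shock element (GAANNTTC), the sterol element (TCACNCCAC) and the NRF2 element (TGACNNNGC) stood in 6.45%, 1.19% and 15.3% of promoters of genes called lower, in 6.05%, 1.21% and 17.7% of those called higher, and in 5.73%, 1.11% and 14.4% of all. No test was run on these shares, and some promoters hold several motifs.

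Among genes of heart muscle, Tcap and Myom2 rose and Nppb fell. Of 27 members of the sarcomere list, 2 rose and 3 fell, where 3.04% of all genes rose and 8.34% fell, and the median was -0.0064 with TPM and 0.057 with median-of-ratios scaling. The number that fell was 1 without NRF replicate 3. Tcap, which caps titin at the Z-disc, is one of the most abundant genes that rose. It read 2332, 2905, 2626 and 2619 TPM under DRF and 1282, 1147, 1326 and 1244 TPM under NRF. The regimens were far apart relative to their spread, 2.097-fold in the mean (1.07 ± 0.23, adjusted p = 0.0015). Myom2, of the M-band, rose by 0.77 ± 0.14 (adjusted p = 1.62e-04). Nppb, the natriuretic peptide that reports wall stress, read 231, 328, 265 and 376 TPM under DRF and 1139, 704, 754 and 836 TPM under NRF. It was lower in every DRF library, 2.86-fold in the mean (-1.51 ± 0.34, adjusted p = 0.0021). Actc1, cardiac alpha-actin, was the most abundant gene called lower. It read 8859.8, 8746, 10964 and 9494 TPM under DRF and 12736, 10860.0, 16996 and 11974 TPM under NRF, with an overlap between the regimens, and its difference of -0.45 ± 0.12 (adjusted p = 0.0097) lost the call without NRF replicate 3 (0.10). Acta1, the skeletal alpha-actin that shares much of its sequence with Actc1, differed by -1.04 ± 0.32 (adjusted p = 0.03) and lost the call without DRF replicate 1 (0.11), DRF replicate 2 (0.13), NRF replicate 1 (0.11) or NRF replicate 3 (0.18). Fhl2, a protein that binds titin and signalling factors, fell by 0.41 ± 0.10 (adjusted p = 0.0056).

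Rtn4r, the receptor for Nogo, had the largest difference of all called genes. It read 1.38, 4.37, 3.33 and 3.14 TPM under DRF and 12.0, 13.6, 27.5 and 10.8 TPM under NRF. NRF replicate 3 was the highest, and the gap to DRF was wide without it, with 5.22-fold lower levels under DRF (-2.03 ± 0.33, adjusted p = 4.68e-05) and a difference of -1.75 without that library. Tuba8, an alpha-tubulin, read 54.6, 70.8, 76.7 and 70.6 TPM under DRF and 171, 130.2, 209 and 132 TPM under NRF. All DRF values were lower, with a difference of -1.21 ± 0.14 (adjusted p = 3.34e-07). Arhgef19, an activator of the small GTPase RhoA, had the smallest adjusted p of the genes named here, at -1.03 ± 0.099 (adjusted p = 2.26e-09). Slc41a3, a magnesium transporter, was lower, with a difference of -1.05 ± 0.16 (adjusted p = 1.57e-05). Ccl2, a chemokine that attracts monocytes, and Ccdc69 were lower, with differences of -1.001 ± 0.21 (adjusted p = 0.0014) and -1.01 ± 0.21 (adjusted p = 0.0011). Tnfrsf12a, the receptor for the cytokine TWEAK, read 34.7, 39.8, 33.7 and 42.6 TPM under DRF and 142, 54.5, 70.8 and 66.7 TPM under NRF. NRF replicate 1 was much higher than the rest, and without it the call was lost (adjusted p = 0.065). 2210407C18Rik was lower, with a difference of -1.26 ± 0.29 (adjusted p = 0.0029).

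On the higher side, Timp4, an inhibitor of matrix proteases that the heart expresses strongly, read 28.9, 30.5, 32.8 and 31.2 TPM under DRF and 16.4, 9.92, 8.95 and 11.3 TPM under NRF. The groups were apart by 1.36 ± 0.22 (adjusted p = 4.20e-05). Adh1, an alcohol dehydrogenase, read 27.3, 19.5, 37.5 and 22.1 TPM under DRF and 10.2, 10.8, 10.9 and 11.04 TPM under NRF, a tight NRF group below a scattered DRF group (1.19 ± 0.23, adjusted p = 4.37e-04). Ahsg encodes fetuin-A, a plasma protein made by the liver, and read 13.0, 21.9, 23.5 and 15.5 TPM under DRF and 6.63, 9.05, 6.40 and 6.64 TPM under NRF. Its call at 1.23 ± 0.41 (adjusted p = 0.041) was lost without DRF replicate 2 (0.099), DRF replicate 3 (0.093), DRF replicate 4 (0.061), NRF replicate 1 (0.097), NRF replicate 3 (0.10) or NRF replicate 4 (0.068). The liver gene Alb, chosen after its values were seen, ranged from 0 to 10.9 TPM with a difference of -0.14 ± 0.88 (adjusted p = 0.95), and its regimens overlapped. The part of liver RNA in the Ahsg difference was not tested. Fam107a and the long noncoding gene Gm19277 were higher by 1.14 ± 0.22 (adjusted p = 5.22e-04) and 1.39 ± 0.22 (adjusted p = 3.17e-05). The small nuclear RNA gene Gm47290 was called at 1.497 ± 0.47 (adjusted p = 0.031), and lost the call without DRF replicate 1 (0.05), DRF replicate 4 (0.12), NRF replicate 2 (0.099) or NRF replicate 3 (0.11). Sqstm1, the autophagy receptor p62, read 285, 296, 282 and 251 TPM under DRF and 213, 178, 201 and 195 TPM under NRF, up by 0.50 ± 0.080 (adjusted p = 3.77e-05). Gclm, a subunit of the first enzyme of glutathione synthesis, rose by 0.48 ± 0.093 (adjusted p = 3.88e-04).

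The remaining lists had few calls, and several counts turned on the scaling or on 1 library. Of 29 collagen and matrix genes, 0 rose and 3 fell (Col15a1, Col6a2 and Col6a3), with a median of -0.21. That count was 0 without DRF replicate 1, DRF replicate 4, NRF replicate 1 or NRF replicate 3 and 1 without DRF replicate 2. Among 27 autophagy genes, 1 rose and 2 fell, but 5 rose and 1 fell with median-of-ratios scaling. The number that fell was 0 without DRF replicate 1, NRF replicate 1 or NRF replicate 3 and 1 without DRF replicate 4. Of 31 ion channel and calcium handling genes, 0 rose and 2 fell, but 2 rose and 1 fell with median-of-ratios scaling. The number that fell was 1 without DRF replicate 3, DRF replicate 4, NRF replicate 1 or NRF replicate 3 and 4 without NRF replicate 2, and 1 rose without NRF replicate 4. Among 22 immediate early genes, 1 rose and 1 fell. The number that rose was 0 without DRF replicate 2 or NRF replicate 3 and 2 without DRF replicate 1, which also left 0 that fell. Of 19 NRF2 targets, 2 rose and 1 fell. The number that fell was 0 with median-of-ratios scaling and 0 without any one library other than NRF replicates 2 and 4, and 2 without NRF replicate 2. The number that rose was 1 without DRF replicate 1, DRF replicate 4, NRF replicate 1 or NRF replicate 2. Of 18 genes of amino acid transport and serine and asparagine synthesis, 0 rose and 2 fell, and 1 fell with median-of-ratios scaling or without DRF replicate 1, DRF replicate 4, NRF replicate 1 or NRF replicate 3. None of 19 genes of DNA replication and cell division, 19 of branched-chain amino acid breakdown and 7 targets of the aryl hydrocarbon receptor passed with TPM. With median-of-ratios scaling, 4 branched-chain genes and 1 gene of DNA replication and cell division were higher, and 1 branched-chain gene was higher without DRF replicate 3 or NRF replicate 4. A lost call was seen for Col15a1 without DRF replicate 1 (0.20), DRF replicate 2 (0.053), DRF replicate 4 (0.095), NRF replicate 1 (0.10), NRF replicate 2 (0.056), NRF replicate 3 (0.12) or NRF replicate 4 (0.054), for Col6a2 without DRF replicate 1 (0.22), DRF replicate 2 (0.051), DRF replicate 4 (0.084), NRF replicate 1 (0.15) or NRF replicate 3 (0.10), for Col6a3 without DRF replicate 1 (0.16), DRF replicate 4 (0.069), NRF replicate 1 (0.11) or NRF replicate 3 (0.099), with the adjusted p in parentheses.

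Exons of some of these genes overlap another gene on the opposite strand. Among them are Manf, Timp4, Tuba8, Sqstm1, Dbp (with Sphk2), Nr1d1 (with Thra), Fdft1 (with Ctsb) and Pdia3. Manf also shares exon sequence with Rbm15b on its own strand. The library kit named in the labels does not mark strand, so reads of such pairs cannot be told apart.

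Few markers of cell types were called. Of the marker lists for blood, fat tissue, brown fat, skeletal muscle, fibroblasts, macrophages, lymphocytes with neutrophils, and atrium, 0 members were called by limma in either direction. Kdr, of 7 endothelial markers, was lower at -0.46 ± 0.12 (adjusted p = 0.0071), and Actc1 was the called member of 8 cardiomyocyte markers. The summed cardiomyocyte markers ranged from 29150.0 to 33540.0 TPM under DRF and from 31350.0 to 38180.0 TPM under NRF. The summed blood genes overlapped between the regimens, from 3702 to 22260.0 TPM under DRF and from 2611 to 26930.0 TPM under NRF. Actn3 and Tnnt3, defining genes of skeletal muscle, did not reach the mean of 1 TPM. In whole tissue, fewer cells of a type and less RNA per cell cannot be told apart.

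Hearts of other animals were taken at ZT24, the same clock time 1 day later, so they repeat the comparison in libraries that ZT0 did not use. The atrial markers summed to 260.4 to 3229 TPM under DRF and 184 to 1439 TPM under NRF at ZT24. Their median difference was 1.53, and 1 of 8 passed, the transcription factor gene Tbx5 at 0.68 ± 0.17 (adjusted p = 0.0087). The part of these tissue markers in the ZT24 comparison was not tested. At ZT24, 610 genes were higher under DRF (4.39%) and 617 lower (4.44%). Of the genes called at ZT0, 591 were called the same way at ZT24, which is 37.4% of the ZT0 list and 48.2% of the ZT24 list, and 1 gene was called the opposite way. The sign was the same at ZT24 for 98.8% of the genes called higher and 93.0% of those called lower, against 71.2% of all genes. A direct test of the difference between the days called 0 genes with limma, with 810 genes at an unadjusted p under 0.05, a smallest adjusted p of 0.067, and 0 calls by limma voom on the reads.

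Slc27a1 differed at ZT24 by 1.13 ± 0.14 (adjusted p = 1.68e-06) and Pdk4 by 1.94 ± 0.46 (adjusted p = 0.0054). Tfrc and Nppb repeated their falls, at -1.85 ± 0.26 (adjusted p = 1.10e-05) and -1.76 ± 0.34 (adjusted p = 6.78e-04). The ER chaperone list had 9 lower members and 1 higher at ZT24, and the glucocorticoid list 7 higher and 0 lower. For Hspa5 the ZT24 difference was -0.55 ± 0.15 (adjusted p = 0.019). Of the FOXO and insulin list, 11 members were higher at ZT24. Arntl and Dbp did not pass there, at -0.40 ± 0.23 (adjusted p = 0.29) and 0.60 ± 0.42 (adjusted p = 0.40). Arhgef19 passed at ZT24 with a smaller difference, -0.33 ± 0.099 (adjusted p = 0.031), and the adjusted p of its difference between the days, the smallest there with that of Mgea5, was 0.067. Slc41a3 did not pass at ZT24, at -0.40 ± 0.16 (adjusted p = 0.098). Of the 109 genes named here that were called at ZT0, 62 were called the same way at ZT24 and 47 were not called there.

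At ZT12, lights off, the feeding states are swapped, since DRF mice had passed through their feeding phase and NRF mice through a day without food. The atrial markers summed to 1039 to 4822 TPM under DRF and 235 to 1727 TPM under NRF at ZT12, with a median difference of 2.34, and 6 blood markers, such as the globin genes, to 4942 to 31711 TPM under DRF and 2206 to 43004 TPM under NRF, with a median of 1.07. No member of either list passed with limma at ZT12, the ranges of the regimens overlapped, and the part of these markers in the comparison was not tested. At ZT12, 176 genes were higher under DRF (1.27%) and 886 lower (6.38%). The regimen difference at ZT0 differed from that at ZT12 for 2008 genes (14.5%, limma contrast of the differences). Of the 422 genes called higher at ZT0, 380 had the opposite sign at ZT12 and 150 were called there in the opposite direction, against 3 called in the same one. Of the 1159 called lower, 784 had the opposite sign, with 94 called opposite and 4 called the same way. The sign was the same at both times for 9.95% of the genes called higher and 32.4% of those called lower, against 45.4% of all genes. With TPM the median difference over all genes was -0.058 at ZT12, as it was -0.053 at ZT0. These ZT12 counts and shares are given with TPM only, and the part of the scaling in their balance was not tested.

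Tfrc turned from -1.70 ± 0.26 at ZT0 to 1.56 ± 0.26 (adjusted p = 3.49e-04) at ZT12, and Nppb from -1.51 ± 0.34 to 1.26 ± 0.34 (adjusted p = 0.016). Mt2, Per1, Egln3 and Tuba8 turned as well, to -1.41 ± 0.31 (adjusted p = 0.0033), -1.16 ± 0.36 (adjusted p = 0.039), 0.76 ± 0.18 (adjusted p = 0.0055) and 0.53 ± 0.14 (adjusted p = 0.015). Tcap went to -1.22 ± 0.23 (adjusted p = 8.89e-04) and Cirbp to -0.79 ± 0.18 (adjusted p = 0.0054). Nfil3 went to 0.99 ± 0.25 (adjusted p = 0.0095), and Dbp did not pass at ZT12, at -1.27 ± 0.42 (adjusted p = 0.053). Mean Dbp levels were 13.1 TPM under DRF and 4.05 TPM under NRF at ZT0, and 59.8 and 147 TPM at ZT12. For Arntl they were 7.18 and 12.4 TPM at ZT0, and 1.28 and 0.27 TPM at ZT12. Both regimens thus moved the same way between these times, and no phase was fitted. In all, 3 higher and 4 lower genes were called in the same direction at both times. Bdh1 and Oxct1, which serve ketone use, were lower under DRF at both times, with -0.92 ± 0.27 (adjusted p = 0.026) and -0.29 ± 0.085 (adjusted p = 0.03) at ZT12. 2210407C18Rik and Nupl2 were lower at both, with -1.09 ± 0.29 (adjusted p = 0.016) and -0.27 ± 0.076 (adjusted p = 0.019). Ramp1, a coreceptor for the vasodilator peptide CGRP, and the noncoding gene Gm49477 were higher at both, with 0.50 ± 0.12 (adjusted p = 0.009) and 0.35 ± 0.088 (adjusted p = 0.011). Pla2g16, a phospholipase, was higher at ZT12 by 0.19 ± 0.051 (adjusted p = 0.015), and its difference at ZT24 was 0.11 ± 0.051 (adjusted p = 0.16). At ZT24 none of these 7 genes passed with limma, with -0.61 ± 0.27 (adjusted p = 0.15) for Bdh1, -0.16 ± 0.085 (adjusted p = 0.25) for Oxct1 and -0.75 ± 0.29 (adjusted p = 0.098) for 2210407C18Rik. Ramp1 and Gm49477 were at 0.25 ± 0.12 (adjusted p = 0.20) and 0.20 ± 0.088 (adjusted p = 0.14), and Nupl2 had the opposite sign, at 0.063 ± 0.076 (adjusted p = 0.66). Pdk4 did not pass at ZT12, at 0.18 ± 0.46 (adjusted p = 0.85). A lost call was seen for Nupl2 without DRF replicate 1 (0.066), DRF replicate 2 (0.062), NRF replicate 1 (0.10) or NRF replicate 3 (0.14), for Gm49477 without DRF replicate 2 (0.06) or NRF replicate 3 (0.079), for Pla2g16 without DRF replicate 1 (0.085), DRF replicate 3 (0.083), DRF replicate 4 (0.10), NRF replicate 1 (0.062), NRF replicate 2 (0.076) or NRF replicate 4 (0.11), with the adjusted p in parentheses.

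**Figure D5:**
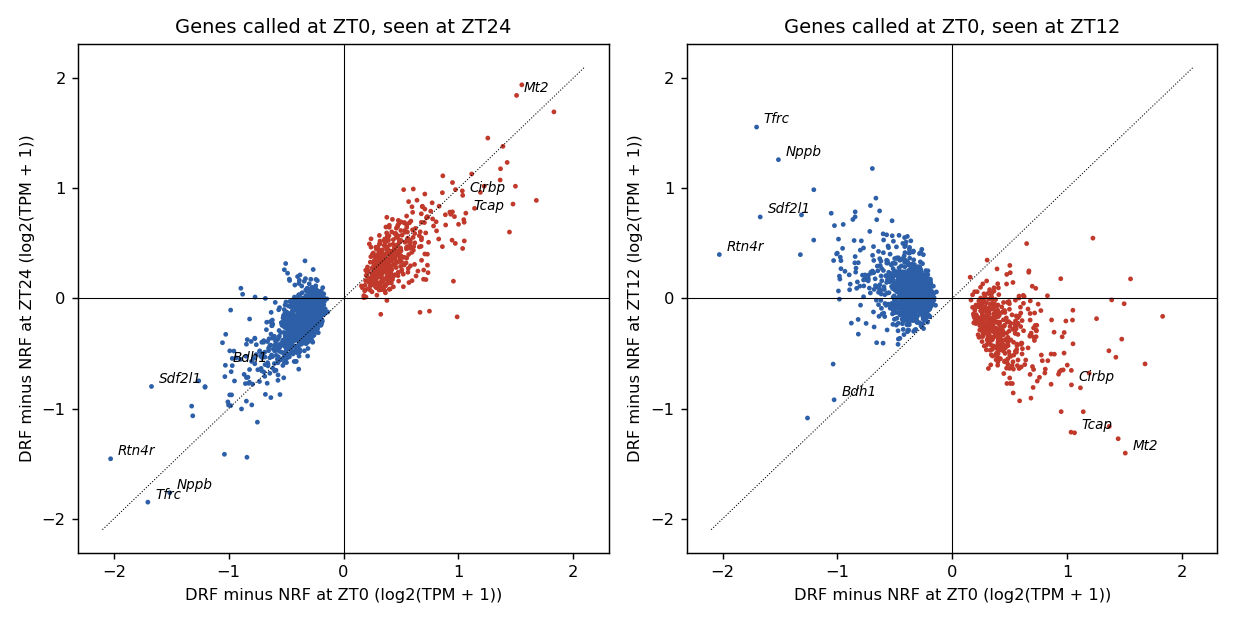
Each point is one of the 1581 genes called at ZT0, with its ZT0 difference on the horizontal axis and its difference at ZT24 (left) or ZT12 (right) on the vertical axis, all on the log2(TPM + 1) scale; the dotted line marks equal values. At ZT24, 417 of 422 higher (red) and 1078 of 1159 lower (blue) genes keep their sign, and at ZT12 380 and 784 have the opposite sign.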

How the data were processed

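Poly(A) RNA of hearts was sequenced from 56 libraries in 14 groups of 4, and groups were taken from the labels. The submitters' processing notes name HISAT2 2.0.5, featureCounts 1.5.0-p3 and the build mm10. The values deposited by the authors are named TPM, but they scale with log2(1 + depth-scaled reads) divided by exon length, which is neither a linear TPM nor a log of one. Whole reads were therefore recovered with exon lengths of GENCODE M21 (GRCm38) and TPM recomputed, where the design had assumed deposited TPM. Of 1192311 values tested, 1192309 were whole within 0.1 read. The annotated length was used for 21957 of 22864 genes (96.0%), and for 832 genes, 797 of them on chromosomes 17 to 19, the length was searched, so their levels rest on that search. For 70 further genes the abundance was beyond what could be tested, so their annotated lengths went unchecked, and 5 were left out. Values were tested only under 30000 reads. Mean ZT0 reads under DRF and NRF were above that for Actc1 (238230 and 373100) and Cd36 (68712 and 61610). No column lacked a sample (0).

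limma 3.58.1 in R 4.3.3 was fitted to log2(TPM + 1) with 14 group means over all 56 libraries and a mean-variance trend, for the 13893 genes that averaged 1 TPM or more, and p-values were adjusted by the Benjamini-Hochberg method. On simulated data for DRF ZT0 against NRF ZT0 (13893 genes), 58 of 100 genes changed 1.5-fold and 99 of 100 changed 2-fold were found, with 5 false calls. The simulated reads had the same dispersion for every gene and no differences in tissue content between libraries. The false calls are therefore not an error rate of the real comparison. Recovery was also tested on simulated data. Python 3.11.15, pandas 2.3.3, numpy 2.4.6, scipy 1.17.1 and matplotlib 3.10.9 served for the rest. Reads carry no molecular identifiers, and depth was 29.3 M to 47.4 M recovered reads at ZT0. None of the 28 pairs of ZT0 libraries was identical (0).

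Named by rule were the 15 genes with the largest differences in each direction (called, no overlap between regimens, mean of at least 5 TPM in the higher one), the core clock, up to 6 called members of each other list by adjusted p and up to 2 not called, the 6 largest that kept and the 6 that turned their sign with a call at ZT12, the 6 most abundant called genes in each direction, and markers. Spats2l, Hnrnpa3, Acacb, Pan2, Adcy3, Zfp57, Alg12, Alb, Atf6, Xbp1, Fdft1, Fkbp5, Tsc22d3, Ncl and Npm1 were named after their values were seen. Some genes are not reported here. The comparison, the members and the gene lists were chosen with earlier results of these data known. Alternatives were other scalings, pseudocounts, filters, limma voom, the deposited values, a replicate block and leaving out each library.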

Additional observations from a re-analysis of the deposited data

Results flagged for a closer look

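Within the groups of 4 libraries, 1 library lay far from the other 3 by Dixon's test for 14 of 272 sets of values, of the genes named and of 3 library measures, where chance gives about 1 in 20. They were Acadm in DRF replicate 3 (611 TPM), Adcy3 in NRF replicate 2 (2.005 TPM), Ahsg in NRF replicate 2 (9.04 TPM), Arntl in NRF replicate 1 (14.8 TPM), Cpt1a in NRF replicate 2 (27.1 TPM), Egln3 in DRF replicate 1 (40.6 TPM), Gm47290 in DRF replicate 4 (11.7 TPM), Mlycd in NRF replicate 2 (68.8 TPM), Rtn4r in NRF replicate 3 (27.5 TPM), Scd4 in NRF replicate 1 (6.00 TPM), Slc16a1 in DRF replicate 2 (99.8 TPM), Spats2l in NRF replicate 3 (3.71 TPM), Sqle in DRF replicate 2 (0.903 TPM) and Tfrc in NRF replicate 3 (83.0 TPM). The Rtn4r, Spats2l and Tfrc values belong to NRF replicate 3, the library with the low atrial markers.

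The regimen difference at ZT0 differed from that at ZT12 for 2008 genes by the limma contrast of the differences. The ZT0 difference minus the ZT12 difference was -2.07 for Egln3 on the log2 scale (adjusted p = 1.83e-07). For Mt2 it was 2.91 (adjusted p = 6.08e-06). The ZT0 difference minus the ZT12 difference was -2.77 for Nppb on the log2 scale (adjusted p = 6.00e-05). For Per1 it was 2.53 (adjusted p = 4.97e-04). The ZT0 difference minus the ZT12 difference was -3.26 for Tfrc on the log2 scale (adjusted p = 3.76e-08). For Tuba8 it was -1.74 (adjusted p = 5.84e-08).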

How the results depend on the processing

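The total of 1581 called genes was 709 at an adjusted p under 0.01 (173 higher, 536 lower) and 848 (280 higher, 568 lower) with the 8 ZT0 libraries alone. The 422 higher genes were 969 with median-of-ratios scaling and 689 with limma voom, and the 1159 lower genes were 757 without the mitochondrially encoded genes in the TPM sum. Leaving out each library gave 896 to 1717 calls in all, 260 to 384 higher (260 without DRF replicate 1) and 598 to 1352 lower (690 without DRF replicate 1, 727 without DRF replicate 4, 598 without NRF replicate 1 and 612 without NRF replicate 3). The 591 genes called the same way at ZT24 were 953 with median-of-ratios scaling, 897 with voom and 210 at an adjusted p under 0.01. The ZT0 and ZT24 differences differed for 0 genes, for 2 with a minimum mean of 5 TPM and for 0 to 4 without single libraries (4 without DRF replicate 1, 1 without DRF replicate 2 and 2 without NRF replicate 2). The 2008 genes that differed between ZT0 and ZT12 were 1045 at an adjusted p under 0.01. Of the named genes called, 0 changed sign under the alternatives run. List medians near 0 did change sign with median-of-ratios scaling, among them those of glycolysis, the sarcomere, ribosomal proteins and the respiratory chain, and so did the median of all genes. Of 109 named genes called, 76 kept the call without each library in turn. The causes were not tested.

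Same-numbered libraries were not treated as pairs, since the correlations of their deviations were -0.024, -0.037, 0.11 and -0.058 and not all over 0.1. The labels give only the number, and these correlations cannot show whether such libraries were handled together. With the replicate block, 1053 genes were called (276 higher, 777 lower) and 348 were shared with ZT24, and 98 of the 109 named genes kept the call.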
